A study of Mus musculus with 2 samples.

Results

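The Hsd11b2 Rorb Syt2 stromal cells were 237 of 8603 uterine cells, 16 in the control library and 221 in the conditional knockout (cKO) library. Transcripts were counted as unique molecular identifiers (UMIs), and a barcode was taken as a cell if 500 genes or more had a UMI and mitochondrial genes held 20% of its UMIs or less. It counted as stromal when Col1a1, Col1a2, Col3a1, Dcn and Lum together held at least 0.2% of its UMIs and neither Ptprc, the pan-leukocyte gene, nor Epcam, the epithelial adhesion gene, had a UMI. Members were stromal cells with at least 2 of 7 markers (Hsd11b2, Rorb, Syt2, Hrk, Slc26a7, Sox8, Bdkrb2), fewer than 3 genes of a list headed by Cyp26b1 (Cyp26b1, Prrx2, Dio2, P2ry14, Nrg2, Aldh1a2, Saa3) and fewer than 3 of a list headed by Gpr83 (Gpr83, Cilp, Adgrd1, Sfrp4, Rnase10, Asb5, Tnfrsf11b). The members were thus chosen by detection of these marker, exclusion and stromal genes, and values of those genes below describe the choice. The 2 libraries held 2878 stromal cells in all.

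The uteri came from female mice 6 months old. The control mice carried floxed alleles of Prickle1 (Prickle1 f/f), and the cKO mice carried the same alleles with a Cre driver (Prickle1 f/f Ltf-cre). Uteri of 3 mice were pooled for each genotype into 1 droplet library, whole tissue was digested for 5 hours with collagenase, and transcript 3′ ends were counted. With 1 library a group no difference between genotypes could be tested: animals, digestion, library and genotype cannot be told apart, and all 95% intervals cover counting error only. A further genotype entry in the labels names both samples as wild type of the C57BL/6J strain, and the groups here follow the sample titles.

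Endometrial stroma is the fibroblast layer around the uterine epithelium, and it answers ovarian steroids and epithelial hedgehog and Wnt signals. Hsd11b2 encodes the dehydrogenase that inactivates glucocorticoids and so shields the mineralocorticoid receptor in kidney. Prickle1 is a component of planar cell polarity signalling, and the lactoferrin gene Ltf is an estrogen-responsive gene of uterine epithelium, where an Ltf-driven Cre is known to act, as it is in some myeloid cells.

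Members were a larger share of the cKO library. They were 0.438% of 3653 control cells (exact binomial interval 0.251 to 0.710) and 4.46% of 4950 cKO cells (3.91 to 5.08), a ratio of 10.2 (6.15 to 16.9). Within the stromal cells the shares were 1.66% of 964 (0.952 to 2.68) and 11.5% of 1914 (10.1 to 13.1), a ratio of 6.96 (4.21 to 11.5). With every cell thinned to 3000 UMIs before the rule was applied, members were 7 of 653 control stromal cells (1.07%) and 189 of 1659 cKO stromal cells (11.4%). Thinning left out 1294 control and 1321 cKO cells that were shallower. The direction was the same in all 8 alternative forms of the rule, and the ratio among all cells ranged from 5.68 to 17.6.

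**Figure D1:**
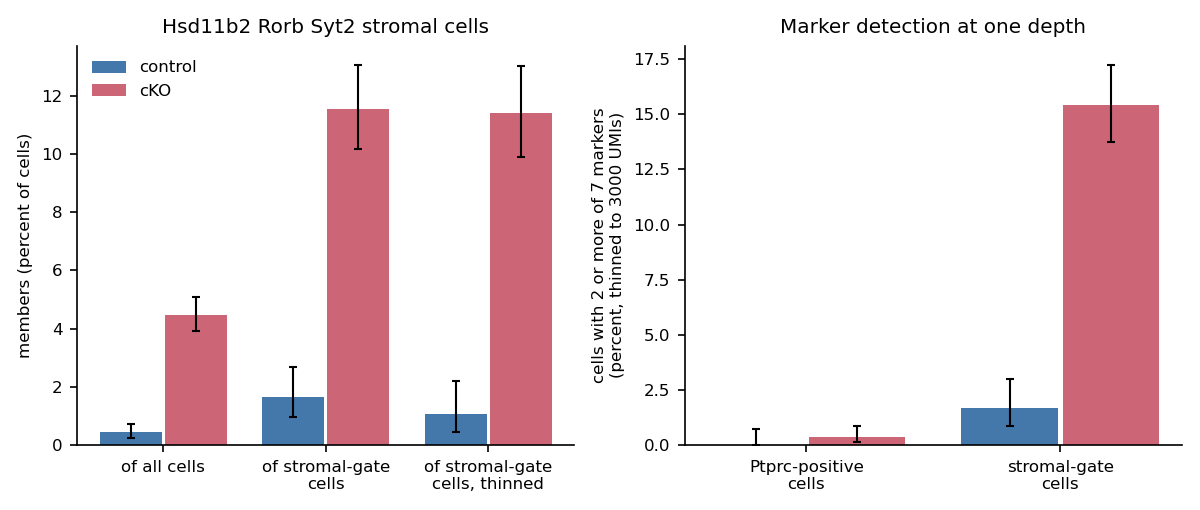
Left, members as a percentage of all cells and of stromal cells in the control (blue) and cKO (red) library, and of stromal cells after thinning each to 3000 UMIs. Right, the percentage of cells with at least 2 of the 7 markers at 3000 UMIs, in Ptprc-positive and stromal cells; bars are single libraries and lines are exact 95% binomial intervals. The cKO stromal bars stand at 11.5% and 11.4% on the left and at 15.4% on the right.

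Most stromal cells that carried the markers were not members, because the exclusion lists removed them. In cKO 665 of 1914 stromal cells (34.7%) had at least 2 markers, and 444 of them (66.8%) were removed, 353 by the Cyp26b1 list, 166 by the Gpr83 list and 75 of these by both. In control 35 of 964 (3.63%) had at least 2 markers, and 19 were removed. The same 2-marker count in Ptprc-positive cells, which should lack these genes, was 0.516% of 775 in control and 3.10% of 1774 in cKO, with median depths of 6629 and 5656 UMIs against 6615 and 12998 in stroma. At 3000 UMIs it was 0 of 491 control leukocytes, which allows up to 0.611% (3 counts), and 5 of 1349 cKO leukocytes (0.371%), against 1.68% and 15.4% of stromal cells. In Epcam-positive cells at that depth it was 0 of 692 in control, which allows up to 0.434%, and 5 of 95 in cKO (5.26%, 1.73 to 11.9). At this depth the stromal share was above the leukocyte share in each library.

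Membership also followed depth. Members had a median of 12038 UMIs in control and 9352 in cKO, while the 278 cKO cells that had the markers and at least 3 Cyp26b1-list genes without the Gpr83 list (the marked Cyp26b1-list cells below) had a median of 19819. Of the 189 cKO cells the rule found at 3000 UMIs, 100 were members at full depth, 60 were marked Cyp26b1-list cells and 21 had at least 3 Gpr83-list genes. Levels at 3000 UMIs are given in CPM (counts per 1000000 UMIs, here of all cells of a set summed). The Cyp26b1 list summed to 458 CPM in cKO members and 2878 in marked Cyp26b1-list cells, with a mean of 0.702 and 2.61 of its genes detected. In cKO stromal cells with fewer than 2 markers it summed to 470 CPM. The 7 markers summed to 971 CPM in cKO members and 839 in marked Cyp26b1-list cells. The rule split members from marked Cyp26b1-list cells by detection of the Cyp26b1 list at full depth. Its level therefore had to differ between them, is given as a description and does not bear on the part of depth.

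Of the 3 genes that name the cells, Hsd11b2 and Rorb were found in most cKO members and Syt2 in few. Hsd11b2 (chromosome 8, 105518755 to 105523988, plus strand, GRCm38) was detected in 180 of 221 cKO members (81.4%) and 8 of 16 control members. Rorb (chromosome 19, 18930605 to 19111196, minus strand), an orphan nuclear receptor of the ROR family, was detected in 134 (60.6%) and 7. Bdkrb2 (chromosome 12, 105563226 to 105595237, plus strand), the bradykinin B2 receptor, was detected in 120 (54.3%) and 5. The 4 other markers were each found in few cKO members. Sox8, a SoxE transcription factor, was detected in 38 cKO and 8 control members, and Syt2, a calcium sensor of vesicle release, in 34 (15.4%) and 5. Hrk, a BH3-only cell death gene, and Slc26a7, an anion transporter, were each detected in 32 cKO members, and in 3 and 4 control members.

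Members rarely shared more than 3 of the 7 markers. In cKO 122 members had 2 markers, 75 had 3, 19 had 4 and 5 had 5, and in control 10 had 2, 5 had 3 and 1 had 5. Hsd11b2 with Bdkrb2 and the triple of Hsd11b2, Rorb and Bdkrb2 were the commonest sets in cKO, with 32 members each, followed by Hsd11b2 with Rorb in 25. The control members held 14 different sets, none in more than 2 cells. Of the 34 cKO members with Syt2, 29 also had Hsd11b2 and 14 had Rorb. A cKO member with Hsd11b2 had a median of 4.28 of its UMIs per 10000 UMIs of the cell, ranging from 0.373 to 32.9, and a control member with Hsd11b2 had a median of 1.31, ranging from 0.294 to 5.12.

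Hsd11b2 and Rorb were high in the marked Cyp26b1-list cells as well as in members. In the cKO library Hsd11b2 stood at 426 CPM in members (401 to 453), 322 in marked Cyp26b1-list cells, 28.0 in Gpr83-list stroma (at least 3 of that list, fewer than 3 of the Cyp26b1 list and fewer than 2 markers) and 33.9 in other stroma, defined as stromal cells with fewer than 2 markers. Cell-free barcodes of the cKO library, those of 100 UMIs or fewer, had 82.7 CPM and cKO Ptprc-positive cells 28.1, so of these sets only members and marked Cyp26b1-list cells were above the cell-free level. Rorb stood at 215 CPM in members, 208 in marked Cyp26b1-list cells, 2.13 in Gpr83-list stroma and 4.72 in other stroma. In the control library Hsd11b2 stood at 86.5 CPM in members (53.5 to 132), 495 in the 11 marked Cyp26b1-list cells and 14.8 in other stroma, and Rorb at 98.8, 342 and 5.41 CPM. Control members were therefore below control marked Cyp26b1-list cells for both genes.

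The 4 sparser markers had higher levels in all cKO members summed than in cKO marked Cyp26b1-list cells. Syt2 was at 16.1 CPM against 5.08, Hrk at 16.1 against 5.83, Slc26a7 at 26.4 against 12.4 and Sox8 at 21.1 against 6.87. In the 53 members of cluster 8 (clusters are described below) Syt2 stood at 2.76, Hrk at 8.29 and Sox8 at 6.91 CPM, with intervals that took in the level of the marked Cyp26b1-list cells, and Slc26a7 at 35.9. In Ptprc-positive cells these 4 genes were between 0.443 and 1.33 CPM. Just outside the marker threshold, the 421 cKO stromal cells with exactly 1 marker had 77.6 CPM of Hsd11b2 and 10.8 of Rorb, against 355 and 156 in the 122 members with exactly 2. Just outside the Cyp26b1-list threshold, the 86 marked cKO cells with exactly 3 genes of that list had 419 CPM of Hsd11b2 and 267 of Rorb, against 447 and 249 in the 97 members with exactly 2. The Cyp26b1-list threshold thus divided cells with close Hsd11b2 and Rorb levels.

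**Figure D2:**
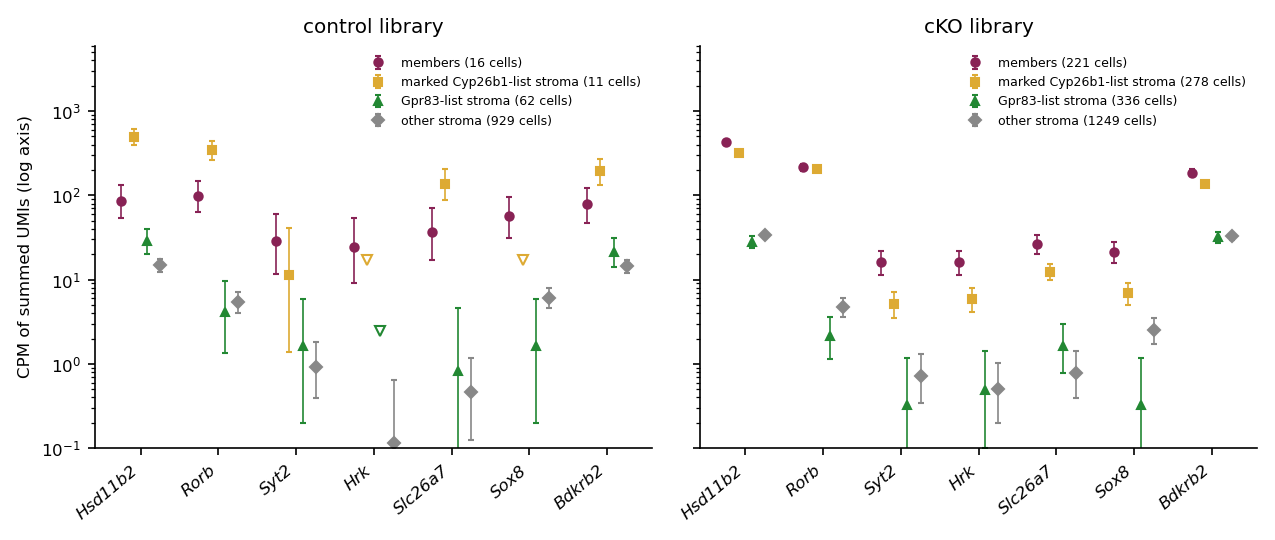
CPM of summed UMIs (log axis) for the 7 markers in members, marked Cyp26b1-list cells, Gpr83-list stroma and other stroma of each library. Filled points carry exact 95% Poisson intervals, and open triangles mark the 3-count limit where no UMI was counted. In cKO, members and marked Cyp26b1-list cells lie close together for Hsd11b2 (426 and 322) and Rorb (215 and 208).

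Stromal identity genes were present in members of both libraries. Members of control and cKO had Pdgfra at 737 and 376 CPM, Pdgfrb at 123 and 125, Vim at 1774 and 974, the HOX gene Hoxa10 at 37.1 and 78.5, and the progesterone receptor Pgr at 305 and 584. Within cKO, 3 of the 23 stromal identity genes were higher than in other stroma (Hand2, Osr1, Wnt5a) and 1 was lower (Thy1). A gene was called higher or lower when its CPM ratio passed 2-fold with an interval that left out 1, among genes with at least 50 UMIs over both cell sets. By that rule 6.7% of 10313 genes were higher and 7.31% lower in cKO members than in cKO other stroma.

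Of the other cell types, smooth muscle had the highest marker sum in members, at about the level of other stroma. The 13 epithelial markers summed to 16.5 CPM in control and 57.8 in cKO members, with Epcam (used by the rule), Ltf, Foxa2 and Elf3 at 0 UMIs in both. The 10 immune markers summed to 416 and 20.2 CPM, and in control 362 of these were Cd74, whose 88 UMIs all lay in 1 cell. The 12 smooth muscle markers summed to 1091 and 1123 CPM, close to the 1180 and 1068 of other stroma, with Des, which stromal cells also express, the highest. The 8 Schwann markers summed to 20.6 and 6.19 CPM, with Sox10 at 0. The 9 neuronal markers summed to 49.4 CPM in control and 44.2 in cKO members, against 22.4 and 27.8 in other stroma, with Snap25 and Stmn2 at 0 in members. Pericyte markers were at 8.23 and 38.8 CPM, blood endothelial at 70.0 and 80.5, lymphatic at 0 and 12.4, mesothelial at 70.0 and 148 (mostly Wt1), mast cell at 8.23 and 14.9, and red cell at 4.12 and 3.30. Between cKO members and cKO other stroma, more of these markers were lower than higher by the 2-fold rule given above. Lower were 6 of 8 tested mesothelial, 4 of 4 red cell and 3 of 5 pericyte markers, and 1 each of the endothelial (Emcn), lymphatic (Ccl21a), epithelial (Msx1) and smooth muscle (Actg2) markers. Of the 3 tested neuronal markers Elavl3 (16.1 against 3.72 CPM) and Tubb3 (12.8 against 2.36) were higher and none lower, and in members of cluster 3, described below, they stood at 32.9 and 24.7. The endothelial adhesion gene Pecam1 was higher, at 28.5 against 6.72 CPM, from 69 UMIs of which 63 lay in cluster 3, and its ratio outside that cluster was 0.568. Krt18 was higher among 4 tested epithelial markers (22.3 against 9.66 CPM). Of 4 tested immune markers Cd79a was higher (16 UMIs) and Cd74 and Laptm5 were lower. No cell barcode was shared between the 2 sets of members, and 5 were shared between the libraries' cells.

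Prickle1, the targeted gene, was sparse in members of both libraries. It had 3 UMIs in 3 of 16 control members (12.4 CPM, 2.55 to 36.1) and 31 UMIs in 26 of 221 cKO members (12.8 CPM, 8.70 to 18.2), a ratio of 1.04 (0.323 to 5.30). Whether these 3′ counts fall in the deleted part of the gene is not given in the sources used here, so they do not check the deletion. Ltf, the gene that names the Cre driver, had 0 UMIs in members, which allows up to 12.4 CPM in control and 1.24 in cKO. None of the 12 tested planar polarity genes was called between cKO members and other stroma, with a median log2 ratio of 0.25 against -0.03 over all genes. By cluster, Ptk7 was higher in members of cluster 3, and Prickle2 and Ror2 in those of cluster 8, among 12 tested in each, where 10.7% and 5.19% of all genes were higher. Between the members of the libraries 2 of 8 were higher in cKO, where 6.9% of 6085 genes were, Fzd3 (58 UMIs and 0) and Ror2 (284 against 98.8 CPM, ratio 2.87, 1.91 to 4.51), with Ror2 at a ratio of 1.47 in other stroma.

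Members did not form 1 cluster. Clustering all stromal cells without the rule genes gave 13 clusters, and cluster 3 held 110 of 221 cKO members (49.8%), cluster 8 held 53 (24.0%) and cluster 4 held 20 (9.05%). The remaining 38 cKO members lay in 10 other clusters. Cluster 3 was led by the heat shock genes Hspa1a and Hspa1b with Rmrp, Syt2 and Pou2f2, with the endothelial gene Pecam1 also among its 10 leading genes, and its 278 cells had a median of 5836 UMIs. Cluster 8 was led by Lrrc10b, Htr1d, Scnn1b, Tchh, Dkk2 and Nppc, and 191 of its 192 cells were from cKO. The 53 cKO members in cluster 8 differed from the cluster in Dkk2, which was called lower in them than in other stroma. Cluster 4 was led by Cyp26b1 and Nrg2 and held 63.3% of the marked Cyp26b1-list cells of cKO. Control members were spread over 7 clusters, with 5 in cluster 10, 4 in cluster 5, 2 each in clusters 3 and 7, and 1 each in 3 others. Cluster 8, in which most cells came from 1 library, held no control member.

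**Figure D3:**
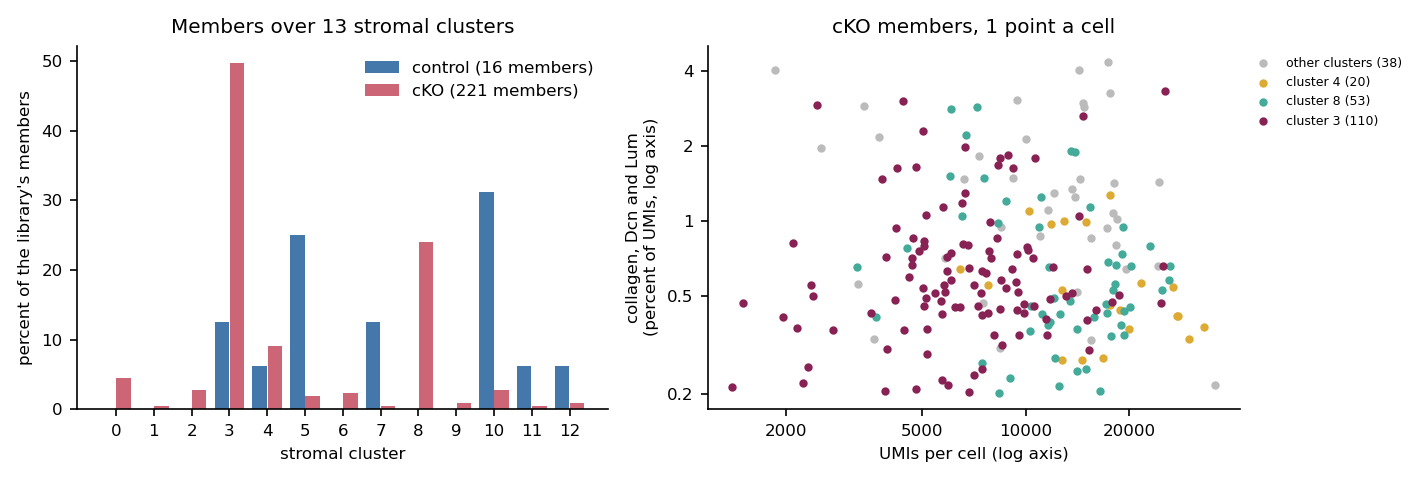
Left, the percentage of each library's members in each of 13 stromal clusters. Right, UMIs per cell against the share of UMIs in Col1a1, Col1a2, Col3a1, Dcn and Lum for the 221 cKO members (log axes), coloured by cluster. Cluster 3 holds 49.8% of cKO members and 12.5% of control members, and its cells lie toward lower UMI counts.

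The cKO members of clusters 3 and 8 differed in marker levels and in stress transcripts. Hsd11b2 was at 686 CPM in the 110 members of cluster 3 and 359 in the 53 of cluster 8, and Rorb at 186 and 217. Syt2 was detected in 28 members of cluster 3 and in 2 of cluster 8, with 1 UMI each. Syt2 stood at 38.8 CPM in cluster 3 and 2.76 in cluster 8, Hrk at 34.1 and 8.29, and Sox8 at 35.3 and 6.91, each from fewer than 50 UMIs, too few for a call. Scnn1b, a subunit of the epithelial sodium channel, stood at 11.8 and 42.8 CPM with too few UMIs as well. Of the 4 markers with enough UMIs, Bdkrb2 was called, at 143 CPM in cluster 3 and 296 in cluster 8. Of 20 dissociation stress genes, 15 were higher in cluster 3 and none lower (median log2 ratio 1.43), where 6.11% of 4504 genes were higher and 13.9% lower. Hspa1a reached 4797 CPM against 89.8, and Hspa1b 6928 against 224. Clusters were built from these same genes, so the contrast describes the clusters. Since cluster 3 carried these transcripts, the counts of the main lists below are also given for the 111 cKO members outside it, where 3.4% of 10127 genes were higher and 5.7% lower than in other stroma.

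Cytokine genes were lower in cKO members than in cKO other stroma. Of 12 cytokine and chemokine genes that mark inflammatory fibroblasts, 11 were lower and none higher, with a median log2 ratio of -2.66. The interleukin gene Il6 stood at 50.4 CPM in members against 1001 in other stroma, a ratio of 0.0503 (0.0418 to 0.0602), and 42.6% of the members' Il6 UMIs lay in 1 cell. The neutrophil chemoattractant Cxcl1 stood at 220 against 1451 CPM, and the monocyte chemoattractant Ccl2 at 534 against 3746. Outside cluster 3 the same number, 11 of 12, was lower. In control 8 of 11 were lower and 1 higher (Csf3, all 13 UMIs in 1 cell), where 3.36% of 9236 genes were higher and 2.96% lower. Other stroma held 336 Gpr83-list cells among 1249 in cKO and 62 among 929 in control, a kind that the rule kept out of the members, and their part in the result was not tested. The marked Cyp26b1-list cells of cKO, compared with the same other stroma, had all 12 lower, where 7.42% of 10731 genes were higher and 9.0% lower. Set directly against those cells, cKO members had 7 of 10 cytokine genes higher (Csf1, Cxcl1, Cxcl2, Cxcl5, Il11, Il6, Lif) and Ccl11 lower, with a median log2 ratio of 1.32, where 5.65% of 9176 genes were higher and 7.55% lower. Il6 stood at 50.4 against 3.14 CPM there, a ratio of 16.1 (10.05 to 26.9), and Cxcl1 at 220 against 35.4. Both values came mostly from the 58 members outside clusters 3 and 8. Of the 122 Il6 UMIs 4 lay in cluster 3 (4.70 CPM) and 12 in cluster 8 (16.6), and of the 533 Cxcl1 UMIs 4 (4.70) and 7 (9.67). Against other stroma the median log2 ratio of the cytokine list was -4.81 in members of cluster 3 and -5.27 in those of cluster 8, and -4.08 in marked Cyp26b1-list cells. The members of each main cluster were not set directly against those cells.

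Several circadian clock genes were higher in cKO members. Of 16 clock and Ror family genes, 7 were higher than in other stroma and none lower, with a median log2 ratio of 0.88. Cry1, a repressor of the clock, stood at 109 against 49.1 CPM, a ratio of 2.22 (1.92 to 2.56). The heme-sensing repressor Nr1d1 stood at 38.8 against 11.2, a ratio of 3.46 (2.65 to 4.49). Per2, Per3, Ciart, Tef and Bhlhe41 were the others, with ratios between 2.18 and 3.54, and the activator Arntl was at 71.0 against 72.7 CPM. The members of both main clusters, set against the same other stroma, had such genes: 9 of 15 were higher in cluster 3, where 10.7% of 10095 genes were higher and 19.2% lower, and 6 of 15 in cluster 8, where 5.19% of 10003 were higher and 9.1% lower. Outside cluster 3 the number was 3 of 15 (Cry1, Nr1d1, Per2), so the count fell by over 1.5 times without that cluster. Marked Cyp26b1-list cells had 0 of 15 higher than other stroma and 1 lower (Rora). Set directly against those cells, cKO members had 7 of 14 clock genes higher and none lower. In control members 0 of 14 were higher and Cry1 was lower, with 1 UMI (4.12 CPM against 48.6 in other stroma, ratio 0.0848, 0.00214 to 0.475).

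Some hedgehog pathway genes were higher in cKO members, with small counts. Of 20 progesterone and hedgehog genes 5 were higher, namely Bmp2, Gli1, Hand2, Hhip and Ptch1, and Cdon, a hedgehog co-receptor, was lower. Ptch1, the hedgehog receptor and itself a target, stood at 59.1 CPM (143 UMIs) against 18.4, a ratio of 3.21 (2.60 to 3.96). The transcriptional effector Gli1 had 38 UMIs (15.7 CPM) against 2.57 in other stroma, a ratio of 6.09 (3.76 to 9.89), and the hedgehog-binding inhibitor Hhip had 25 UMIs, a ratio of 2.33 (1.40 to 3.76). Bmp2, a progesterone target in decidualizing stroma, stood at 125 against 46.6 CPM, and Hand2, a progesterone-dependent transcription factor, at 30.6 against 11.9. Outside cluster 3, Gli1, Hhip and Ptch1 were higher and Boc was lower, while Bmp2 and Hand2 had ratios of 1.73 and 1.77. In control members Gli1 and Hhip had 0 UMIs and Ptch1 had 3, and none of 16 tested genes of the list was called. Marked Cyp26b1-list cells also had Gli1 and Hand2 higher and Cdon lower than other stroma, among 5 higher and 4 lower of 20.

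Wnt genes were called in both directions. Wnt5a, a non-canonical ligand of uterine stroma, was higher in members of both libraries, at 88.4 against 28.3 CPM in cKO (ratio 3.12, 2.63 to 3.69) and 94.7 against 22.9 in control (ratio 4.13, 2.56 to 6.38). Wnt16 had 45 UMIs in cKO members (18.6 CPM against 2.07, ratio 8.96, 5.50 to 14.8) and none in control members. Of 20 Wnt pathway genes 5 were higher in cKO members (with Apcdd1, Dkk3 and Sfrp2) and 5 lower (Dkk2, Frzb, Nkd2, Rspo1, Sfrp1). The secreted Wnt antagonist Frzb was lower in both libraries, at 32.6 against 155 CPM in cKO and 24.7 against 117 in control. Outside cluster 3 the counts were 2 higher (Dkk3, Wnt5a) and 2 lower (Dkk2, Frzb) of 18. Marked Cyp26b1-list cells had Wnt5a, Wnt16, Dkk3 and Sfrp2 higher and Frzb, Rspo1 and Sfrp1 lower than the same other stroma as well (6 higher and 3 lower of 21 in all). Set directly against those cells, cKO members had Apcdd1 and Sfrp1 higher and Dkk2, Lef1, Lgr6 and Wnt4 lower, of 18.

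**Figure D4:**
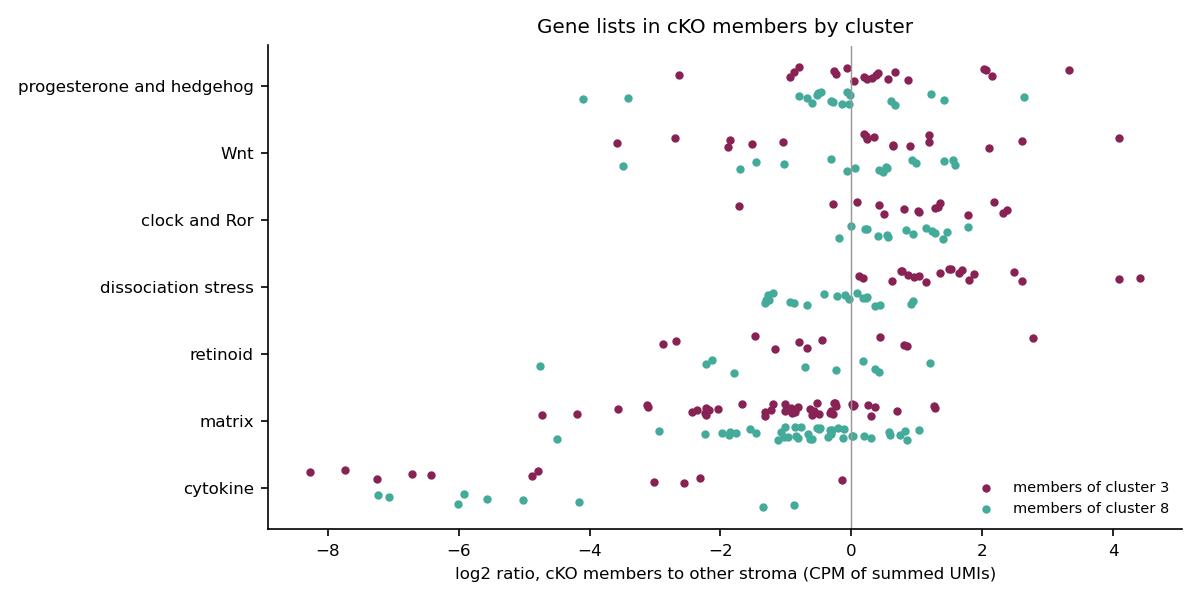
Each point is 1 gene, placed at the log2 of its CPM ratio between cKO members of cluster 3 (purple) or cluster 8 (green) and cKO other stroma; only genes with at least 50 UMIs over both sets and at least 1 UMI in members are drawn. Cytokine genes lie to the left in both clusters, clock genes mostly to the right, and dissociation stress genes to the right in cluster 3 (13 of 20 higher) and around 0 in cluster 8 (0 of 20 higher, 5 lower).

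Of 29 growth factor genes 5 were higher in cKO members (Bmp2, Bmp4, Hbegf, Igf1, Pdgfc) and 5 lower, among them Ereg, Inhba and Nog, and outside cluster 3 the counts were 3 and 5. Marked Cyp26b1-list cells had 2 of 30 higher (Bmp7, Igf1) and 15 lower than other stroma, Bmp4 among the lower. Igf1, the insulin-like growth factor of uterine stroma, was higher in both libraries and stood at 1164 against 350 CPM in cKO (ratio 3.33, 3.18 to 3.49) and 552 against 255 in control (ratio 2.16, 1.80 to 2.58). Bmp4 was higher in both as well, with ratios of 2.39 (1.83 to 3.11) in cKO and 2.93 (1.61 to 4.96) in control. Inhba, the activin A subunit, stood at 375 against 1542 CPM in cKO, while in control it stood at 1227 against 753, short of 2-fold. The binding protein Igfbp4 was higher in cKO members (455 against 127 CPM) and Igfbp3 lower (131 against 343), and neither was called in control. Outside cluster 3 Igfbp3 fell short of 2-fold, with a ratio of 0.510. Marked Cyp26b1-list cells of cKO also had Igfbp4 higher and Igfbp3 lower than other stroma. Igfbp4 stood there at 589 CPM, and the ratio of cKO members to those cells was 0.772 (0.722 to 0.826). Set directly against those cells, cKO members had Igfbp3 called higher.

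Glucocorticoid receptor Nr3c1 was at 136 CPM in control and 112 in cKO members, close to other stroma of each library (179 and 116). The mineralocorticoid receptor Nr3c2 had 0 UMIs in control members, which allows up to 12.4 CPM, and 2 UMIs in cKO members. Hsd11b1, the reductase that regenerates glucocorticoid, had 1 and 17 UMIs. Of 15 glucocorticoid pathway genes none was higher in cKO members than in other stroma and 3 were lower, the metallothioneins Mt1 and Mt2 and H6pd, which supplies NADPH to Hsd11b1. Mt1 stood at 408 against 1643 CPM and Mt2 at 579 against 1912, and both were also called lower outside cluster 3. In control Mt1 and Mt2 had ratios of 0.728 and 0.803, and 1 of 16 genes of the list was called, Tsc22d3, which was higher. In cKO members of cluster 3 alone 4 of 15 were higher (Klf9, Pdk4, Per1, Tsc22d3) and 4 lower. Over all genes 10.7% were higher and 19.2% lower there. In those of cluster 8 Per1 was higher and 3 were lower of 15, where 5.19% of all genes were higher and 9.1% lower. Marked Cyp26b1-list cells also had Mt1 and Mt2 lower than other stroma.

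Retinoid and matrix genes were more often lower than higher in cKO members. Of 11 retinoid genes 5 were lower, among them Aldh1a1, Aldh1a3 and Dhrs3, and 1 was higher, Crabp2, a retinoic acid binding protein, at 17.3 against 4.79 CPM. The median log2 ratio was -0.91, and outside cluster 3 the counts were 3 lower and 0 higher, with Crabp2 at a ratio of 1.86. Stra6, a retinol receptor, had 31 UMIs in cKO members (12.8 CPM against 1.29) and none in control members, under the count needed for a call. Marked Cyp26b1-list cells had Rarg and Stra6 higher than other stroma and Aldh1a3, Dhrs3, Rarres2 and Rdh10 lower, of 12 retinoid genes. Set directly against those cells, cKO members had Aldh1a3, Crabp2 and Rdh10 higher and none lower, of 11. Of 45 matrix genes 14 were lower and 2 higher (Col18a1, Col6a4), and outside cluster 3 the counts were 8 lower and 0 higher of 44. Marked Cyp26b1-list cells had 9 of 46 lower and 4 higher, Col18a1 and Col6a4 again among the higher. The collagen gene Col6a4 was higher in both libraries, at 609 against 302 CPM in cKO and 539 against 244 in control, but had a cKO ratio of 1.81 outside cluster 3. Periostin (Postn) was lower in both, at 138 against 362 and 115 against 242 CPM, and so was the protease inhibitor Timp1, at 64.4 against 311 and 41.2 against 132. Outside cluster 3 Postn had a ratio of 0.540 and Timp1 of 0.299.

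Kinin and prostaglandin genes and genes of inner and outer stroma were more often lower than higher in cKO members than in other stroma. Other stroma again includes the Gpr83-list cells, whose part in these counts was not tested. Of 13 kinin and prostaglandin genes, 2 were higher in cKO members (Edn1, Ptger4) and 5 lower (Bdkrb1, Ednra, Hpgd, Ptgis, Ptgs2), and outside cluster 3 the counts were 1 and 5. The prostaglandin E2 receptor Ptger4 was higher in both libraries, at 88.4 against 35.0 CPM and 144 against 29.8, but its cKO ratio was 1.29 (0.991 to 1.66) outside cluster 3. Of 13 genes of inner and outer stroma 1 was higher (Wfdc1) and 5 lower (Cd55, Clec3b, Ly6a, Ly6c1, Pi16), and outside cluster 3 the counts were 2 and 6. Marked Cyp26b1-list cells had Wfdc1 and those 5 genes called in the same directions, among 3 higher and 8 lower of 13. They also had Edn1 higher and Bdkrb1, Ednra, Ptgis and Ptgs2 lower, among 2 higher and 7 lower of 14 kinin and prostaglandin genes. Set directly against those cells, cKO members had 5 of 13 genes of inner and outer stroma higher and 1 lower. For kinin and prostaglandin genes it was 2 higher and 2 lower of 11. Of 11 decidual genes 2 were higher and 1 lower, of 11 interferon genes 1 was higher (Cxcl10), of 9 proliferation genes 3 were higher (Hmgb2, Mcm5, Stmn1), and of 11 Bcl2 family genes 1 was higher and 3 lower. Of 19 ion transport genes 2 were higher (Aqp1, Clcn3) and 1 lower, and of 10 vesicle genes 1 was higher (Syt11) and 1 lower (Cplx2). Over all 10313 genes tested in that contrast 6.7% were higher and 7.31% lower. The interferon, ion transport and vesicle counts lie near those shares and are no result about members. Outside cluster 3 none of the named proliferation genes was called (Mcm2 was higher), no decidual gene was higher, the Bcl2 family had 0 higher and 2 lower, and Syt11 was not called. Of 20 dissociation stress genes 7 were higher in all cKO members and 0 outside cluster 3.

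The 15 named higher genes of cKO members also included stress transcripts. The named genes ranked first by the end of the interval that lies closer to 1, after limits on UMIs in the higher set, on the share in 1 cell and on the cell-free level. Hspa1a stood at 1886 against 225 CPM, Hspa1b at 2727 against 410 and Hspb1, a small heat shock protein gene, at 572 against 84.3, and in members of cluster 8 they stood at 89.8, 224 and 213. Pou2f2, an octamer-binding transcription factor, stood at 38.4 against 3.08 CPM, a ratio of 12.5 (8.61 to 18.4), and at 5.53 in cluster 8. Prdm1, which encodes the repressor Blimp-1, stood at 112 against 12.4 CPM, a ratio of 9.08 (7.48 to 11.05), at 220 in cluster 3 and 70.5 in cluster 8. The phospholipid flippase gene Atp8a1 stood at 260 against 46.9 CPM and at 206 in cluster 8, the water channel gene Aqp1 at 35.9 against 5.36 and at 20.7, and Runx2, an osteogenic transcription factor, at 65.3 against 10.9 and at 76.0. Prdm1, Atp8a1, Aqp1 and Runx2 were therefore above other stroma in both main clusters. In marked Cyp26b1-list cells they stood at 125, 412, 64.9 and 54.4 CPM. The ratio of cKO members to those cells was 0.630 for Atp8a1 and 0.554 for Aqp1, which were thus higher in those cells. For Prdm1 it was 0.899 (0.781 to 1.03) and for Runx2 1.20 (0.989 to 1.45), with intervals that took in 1. Mmp25, Brip1, Rasgrp2, Cks2, Tent5c, Gdf15 and Cxcl10 had ratios between 4.73 and 9.85, and in cluster 8 they stood between 1.38 and 101 CPM. Outside cluster 3, Hspa1a, Hspa1b, Pou2f2, Mmp25, Brip1, Rasgrp2 and Tent5c fell short of 2-fold, with log2 ratios between 0.14 and 0.95.

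Under the same limits the 8 named lower genes were headed by Il6 and Vcam1. Haemoglobin genes, 4 of which were lower in members, were left out of the naming. The adhesion gene Vcam1 stood at 20.6 against 365 CPM, a ratio of 0.0565 (0.0419 to 0.0747). The carboxylesterase Ces1d stood at 2.06 against 44.6 CPM, the IL-33 receptor Il1rl1 at 28.5 against 291 (63.8% of the members' UMIs in 1 cell), the monocarboxylate transporter Slc16a6 at 9.91 against 115 and Tm4sf1 at 37.6 against 340. Fabp4, a fatty acid binding protein, had 0 UMIs in members and 212 in other stroma, at least 12.2-fold lower against the limit of 3 counts. Siah3 had 1 UMI in members, a ratio of 0.0219 (0.000552 to 0.123). Most of these genes were lower still in marked Cyp26b1-list cells of cKO. Vcam1 and Tm4sf1 each stood there at 10.3 CPM, Il1rl1 at 5.98, Slc16a6 at 4.04, Il6 at 3.14 and Ces1d at 0.149 (1 UMI). Siah3 had 0 UMIs there, too few to compare. Of the 8, only Fabp4 was lower in members than in those cells, which had 87 UMIs of it (upper limit of the ratio 0.120). Low levels of the others thus do not set members apart from those cells.

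Some of these differences were called in the same direction in both libraries. Of 9147 genes tested in both, 79 (0.864%) were higher and 66 (0.722%) lower in members of each, out of 691 higher and 754 lower in cKO and 310 and 273 in control. Of the named genes, Prdm1 had a control ratio of 9.41 (2.75 to 26.1) from 5 UMIs, too few for a call, Mmp25 of 6.92 (3.396 to 12.97) and Aqp1 of 7.85 (3.36 to 16.4). Cxcl10 (3.02, 2.57 to 3.54), Atp8a1 (2.86, 1.02 to 6.53), Hspa1b (2.34, 2.09 to 2.61) and Gdf15 (2.17, 1.25 to 3.54) also passed the rule in control. The remaining named higher genes had no call there, with Hspa1a at a control ratio of 1.68, Hspb1 at 1.01 and Pou2f2 at 0 UMIs in control members. Of the named lower genes, Il6 (0.115, 0.0372 to 0.268) and Il1rl1 (0.472, 0.330 to 0.655) were lower in control too, while Vcam1 (0.676) and Ces1d (1.04, 0.713 to 1.47) fell short of the rule.

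Between the libraries, 6.9% of 6085 genes were higher and 5.16% lower in cKO than in control members, 420 and 314 genes. With trimmed mean (TMM) scaling the split was 591 higher and 241 lower, as that scaling raised every log2 ratio by 0.131. In other stroma the shares were 2.94% and 3.78% of 11013 genes. The control sum of 242911 UMIs came from 16 cells and the cKO sum of 2421419 from 221. Since the rule took cells from different clusters in the 2 libraries, mostly clusters 3 and 8 in cKO and 10 and 5 in control, the values below compare those cells, and fewer cells of a kind and less RNA per cell cannot be told apart.

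Hsd11b2, a rule gene, was 4.93-fold higher in cKO members (426 against 86.5 CPM, 3.21 to 7.999). In other stroma it was 2.28-fold higher (33.9 against 14.8 CPM) and in cell-free barcodes it stood at 82.7 CPM in cKO and 9.31 in control. Rorb was at 215 against 98.8 CPM and Bdkrb2 at 185 against 78.2, while Sox8 was at 21.1 against 57.6. Scube1, a secreted signalling modulator, had 246 UMIs in 110 cKO members and 0 in control members, at least 8.23-fold higher against a limit of 3 counts, and in other stroma it was 5.09-fold higher (3.71 to 7.12). Atp8a1 was 10.5-fold higher (260 against 24.7 CPM, 4.80 to 28.8) and 5.44-fold higher in other stroma. The relaxin receptor gene Rxfp1 had 152 UMIs and 0, at least 5.08-fold higher, and was 3.57-fold higher in other stroma. These 3 genes were therefore higher in cKO in other stroma as well.

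Adm, the vasodilator adrenomedullin, was 9.77-fold higher (966 against 98.8 CPM, 6.55 to 15.3), with a ratio of 1.78 in other stroma. It stood at 1446 CPM in cKO members of cluster 8 and 370 in those of cluster 3, and 41.7% of its control UMIs lay in 1 cell. Cry1 had 264 UMIs against 1, a ratio of 26.5 (4.71 to 1050), and in other stroma its ratio was 1.01 (0.894 to 1.14). It stood at 119 CPM in cKO members of cluster 3 and 135 in those of cluster 8. Gxylt2, a glycosyltransferase gene, had 169 UMIs and 0, at least 5.65-fold higher, while its ratio in other stroma was 0.728. Igfbp4 was 6.14-fold higher (3.86 to 10.4) and Inhbb, the activin B subunit, 3.72-fold higher (2.85 to 4.95), with ratios of 1.42 and 1.81 in other stroma. Hspa1a was 4.58-fold higher (1886 against 412 CPM), 57.0% of its control UMIs lay in 1 cell, and in cKO members of cluster 8 it stood at 89.8 CPM, below control.

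**Figure D5:**
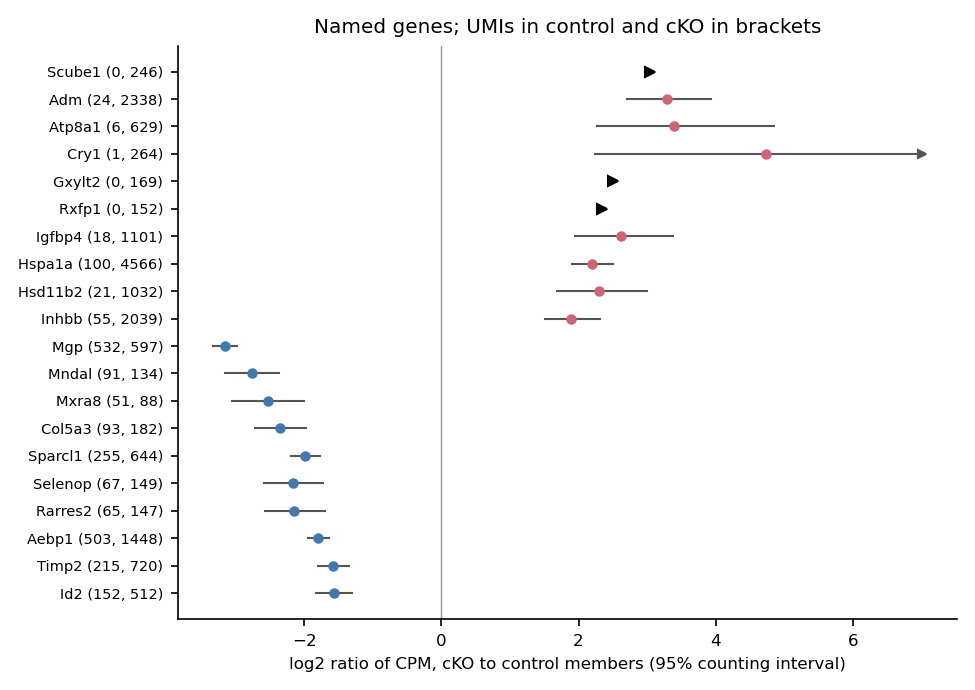
Log2 ratio of CPM between cKO and control members for the 20 genes named by a fixed rule, with 95% counting intervals; UMIs in control and cKO are in brackets. Black triangles are lower bounds for genes with 0 control UMIs, and the Cry1 interval runs past the axis. Each of the 10 lower genes has an interval under -1.

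Of the 10 named genes lower in cKO members, Mgp had the lowest ratio. Mgp, matrix Gla protein, stood at 247 CPM in cKO and 2190 in control members, a ratio of 0.113 (0.100 to 0.127), and its ratio in other stroma was 0.832. Sparcl1, a matricellular protein gene, stood at 266 against 1050 CPM (ratio 0.253, 0.219 to 0.294) with 0.896 in other stroma, and Timp2 at 297 against 885 (ratio 0.336) with 0.819. Col5a3 stood at 75.2 against 383 CPM (ratio 0.196), with 1.15 in other stroma. Mxra8 (ratio 0.173), Mndal (0.148), Selenop (0.223), Rarres2 (0.227) and Aebp1 (0.289) had ratios between 0.264 and 0.547 in other stroma, where all but Aebp1 were called lower too. Among members with at least 3 markers, of which control had 6, Mxra8 turned to a log2 ratio of 0.81 and Aebp1 fell short of 2-fold (-0.61, against -1.79 among all members). In those members Selenop stood at -1.44 (-2.17 among all), Hsd11b2 at 1.52 (2.27), Id2 at -2.34 (-1.57), Col5a3 at -3.20 (-2.35) and Adm at 4.44 (3.26). With members thinned to 3000 UMIs, the intervals of Gxylt2 and Rxfp1 took in 1, and Igfbp4 stood at a log2 ratio of 1.08 (2.58 unthinned). Id2, a dominant negative helix-loop-helix factor, was at 211 against 626 CPM (ratio 0.338), with 1.08 in other stroma. For each of these 10 genes the control member with most of its UMIs held between 19.4% and 24.9% of them.

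Growth factor genes were called in both directions between the libraries' members. Of 5 interferon genes 3 were lower in cKO (Cxcl10, Gbp2, Ifit1), and in other stroma 17 of 21 were. Of 22 growth factor genes 8 were higher and 5 lower, of 7 insulin-like growth factor genes and binding proteins 1 was higher (Igfbp4) and 2 lower (Igf2r, Igfbp3), and of 11 genes of inner and outer stroma 3 were higher (Has1, Pi16, Smoc2) and 1 lower (Clec3b). Of 4 retinoid genes Rdh10 was higher and 2 were lower, among them Rarres2. Of 12 glucocorticoid genes 2 were higher (Cebpd, Klf9) and of 15 progesterone and hedgehog genes 3 (Bmp2, Hoxa10, Ptch1), with none lower in these 2 lists. Ptch1 was at 59.1 against 12.4 CPM, from 143 and 3 UMIs, a ratio of 4.78 (1.60 to 23.5). Of 20 dissociation stress genes 1 was higher (Hspa1a). Of 42 matrix genes 2 were higher and 5 lower, and of 10 cytokine genes 3 were higher (Cxcl5, Il11, Il6) and 1 lower (Csf1).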

How the data were processed

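The deposited files were 2 unfiltered single-cell count matrices of 32285 mouse genes, raw UMI counts per barcode with no normalization. Per the file headers the authors' counts came from Cell Ranger 4, and the submitters' processing notes name Cell Ranger 6.1.1 and mm10. The libraries held 45035801 (control) and 57145553 (cKO) UMIs over all barcodes, and the retained cells held 37682476 and 52903672, with medians of 4650 and 5944 UMIs. The members, gene lists and tests were chosen with earlier results of these data known.

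UMIs were summed over the cells of a set, scaled to CPM, and given with exact Poisson intervals. Ratios had exact conditional binomial intervals and shares had Clopper-Pearson intervals, all at 95% and covering counting error only. A gene with at least 50 UMIs over both sets was tested against the 2-fold rule, and log2 ratios used a pseudocount of 0.5 UMI. No p-value was computed. Genes were named by size, taken at the end of the interval that lies closer to 1: 10 higher and 10 lower between the members of the libraries, and 15 higher and 8 lower between cKO members and other stroma. Each needed at least 50 UMIs in the higher set, at most 25% of them in 1 cell, and a CPM there that was no lower than in barcodes of at most 100 UMIs. No haemoglobin, immunoglobulin, mitochondrial or ribosomal protein gene was eligible, nor any predicted gene without a name. A count of 0 was given the limit of 3 counts. Rule genes and members of the fixed lists, and a cluster's leading genes, were named in addition.

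Stromal cells were clustered with scanpy 1.11.5 (Leiden, resolution 1, 2000 variable genes without the rule genes, 30 principal components, 20 neighbours). Doublets were kept: the automatic Scrublet threshold marked 2 control and 0 cKO cells and so had not worked, and a score limit of 0.25 served as an alternative. TMM factors came from edgeR 4.0.16. Coordinates came from GENCODE annotation of GRCm38, in which 99.61% of gene IDs matched. The scripts were tested on simulated data.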

Additional observations from a re-analysis of the deposited data

Results flagged for a closer look

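For 6 genes of the fixed lists the ratio of members to other stroma was called in opposite directions in the libraries; in each case the difference between the libraries was not tested. Cry1 had a ratio of 2.22 in cKO (264 UMIs in members) and 0.0848 in control, from 1 UMI (0.00214 to 0.475). Stmn1, a microtubule regulator of dividing cells, had 3.43 in cKO (132 UMIs) and 0.128 in control, from 1 UMI (0.00323 to 0.720). The endothelial marker Emcn had 0.487 in cKO (14 UMIs) and 3.62 in control (8 UMIs in 2 cells). The cytokine gene Csf3 had 0.150 in cKO (5 UMIs) and 9.49 in control, where all 13 UMIs lay in 1 cell. The antigen presentation gene Cd74 had 0.158 in cKO (8 UMIs) and 11.6 in control, where all 88 UMIs lay in 1 cell. The keratin gene Krt18 had 2.31 in cKO (54 UMIs), and in control members it had 0 UMIs, with an upper limit of the ratio of 0.720. Each control value rests on 0 to 2 cells of 16.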

How the results depend on the processing

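The design gives 1 library a group and the control values rest on 16 members, so no difference between genotypes was tested. No paired analysis was possible because each group has 1 library.

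Members were 0.164% of control cells and 2.0% of cKO cells with 3 of 7 markers required (0.622% and 5.17% of stroma). With stromal genes at 1% or more they were 0.192% and 1.13% of cells, 6.47% of cKO stroma, and the log2 ratio of shares was 2.56, against 3.35 as reported. With fewer than 2 of each exclusion list they were 2.02% of cKO cells and 5.22% of cKO stroma, with log2 ratios of 2.51 among cells and 1.95 among stroma (2.80 as reported). They were 3.71% of cKO cells with 300 genes and 5.34% with 1000, and on thinned cells 5.21% with a log2 ratio of 4.13. The direction was the same in each.

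Genes higher in cKO members than in control members numbered 136 on thinned cells and 852 by the mean of per-cell CPM, and lower genes 121, 477 and, from 20 UMIs, 522. Against other stroma, cKO members had 344 higher genes outside cluster 3 (an alternative chosen after seeing the data) and 282 on thinned cells, and 1135 lower genes by per-cell means. In both libraries 48 were higher with 3 markers, 40 outside cluster 3, 25 on thinned cells and 138 by per-cell means, and 25 and 326 were lower in the last 2. With 3 markers Mxra8 turned to a log2 ratio of 0.81 between cKO and control members, the kinin and prostaglandin median to 0.38 and the dissociation stress median to -0.070, and from 20 UMIs the median of the 7 markers turned to -0.55. The cause was not tested. Of 542 recomputed values of single genes and gene lists, 425 moved by less than their counting interval (for list medians the spread of the list's genes, for list counts 1.5 times), 113 moved by more, and the 4 just named reversed.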
